A study of Mus musculus with 12 samples.

Results

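The genes described here are 49 members of the Wnt signalling system: 19 Wnt ligands, 10 Frizzled (Fzd) receptors, 2 Lrp co-receptors, 4 R-spondins (Rspo), 4 secreted frizzled-related proteins (Sfrp), 4 Dickkopf proteins (Dkk), 2 Axins and 4 TCF/LEF transcription factors. They were chosen out of 50600 gene identifiers by a rule on gene symbols that uses no measured value. RNA had been sequenced from the whole cerebral cortex of C57BL/6 mice, untreated as far as the labels say, at embryonic days 11, 13 and 17 (E11, E13, E17) and on postnatal day 1 (P1). There were 3 libraries at each age, named A, B and C, each made from the poly(A)+ RNA of the cortex of 1 embryo or pup, with the 3 animals of an age taken from different litters. Sex was not given in the labels. The series was collected to follow zinc uptake and storage while the cortex forms, and the Wnt genes are read here from the same libraries.

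Wnt proteins are secreted, lipid-modified signals that bind a Frizzled receptor together with Lrp5 or Lrp6. Binding holds back the destruction complex, of which the Axins are the scaffold, so that beta-catenin builds up and works with TCF/LEF factors on target genes. R-spondins raise the amount of receptor at the cell surface, whereas Sfrp proteins bind Wnts outside the cell and Dkk1, Dkk2 and Dkk4 block the Lrp co-receptors. In the embryonic cortex a strip of the medial edge, the cortical hem, is a known source of several Wnts, and Wnt signals are known to pattern the hippocampal field, to keep progenitor cells dividing and later to act in axon, vessel and synapse development.

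The libraries held 28173745 to 45858712 counts. Cortical neuron markers (8 of 8 genes with counts at each age) summed to 6614 to 7186 CPM at P1, where CPM is the count per 1e6 counts of the TMM-scaled library, and to 351 to 391 CPM at E11. Radial glia markers, which label the progenitors lining the ventricle, summed to 988 to 1030 CPM at P1 and 2815 to 2880 CPM at E11, and cell cycle genes to 193 to 215 CPM at P1 and 3112 to 3266 CPM at E11. Markers of meninges and choroid plexus, tissue next to the cortex, had their highest sums at the early ages. Meningeal fibroblast markers (10 of 10 genes with counts at each age) summed to 1180 to 1429 CPM at E11, 805 to 1099 at E13, 15.1 to 17.6 at E17 and 14.9 to 72.9 at P1, with the highest P1 value in library A. Col3a1, Col1a2 and Col1a1 averaged 700, 296 and 213 of the mean of 1334 CPM at E11. Of the 10 genes, 7 were lower at P1 than at E11 and 1 was higher, Ptgds (6.08 and 0.306 CPM). Choroid plexus markers (8 of 8) summed to 99.5 to 276 CPM at E11, 44.1 to 405 at E13, 2.32 to 10.5 at E17 and 4.08 to 4.3 at P1. Ventral telencephalon and interneuron markers reached 49.3 CPM in E11 C and 61.3 CPM in E13 C, above the 3.95 to 25.4 CPM of the other E11 and E13 libraries. Their sums were higher at the later ages, 298 to 367 CPM at E17 and 313 to 316 CPM at P1. In whole tissue, fewer cells of a type and less RNA per cell cannot be told apart.

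Of the 49 genes, 41 had enough counts to be tested. The other 8 were near absent from the cortex at every age: over all 12 libraries Wnt11 had 71 counts, Wnt16 had 42, Wnt9b 33, Wnt10b 21, Rspo4 13, Wnt1 3, Wnt8a 2 and Dkk4 1. A mean of at least 1 CPM at some age was reached by 37 genes. The highest mean lay at E11 for 29 of the 41 tested genes, at E13 for 6 (Fzd1, Fzd8, Fzd9, Wnt5a, Wnt7a and Sfrp4), at E17 for Wnt7b and Sfrp5, and at P1 for 4 (Dkk3, Wnt2, Wnt3 and Wnt4). Peak ages were not counted over all tested genes. All 41 differed across the ages in edgeR's quasi-likelihood test at an adjusted p under 0.05, against 90.2% of the 17847 genes tested.

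Between P1 and E11, 38 of the 41 tested members differed, 34 of them lower and 4 higher at P1, and 31 were lower by at least 2-fold. Over all tested genes 82.3% differed, 41.8% were lower and 22.7% were lower by at least 2-fold. The median log2 fold change, later age over earlier, was -2.40 for the tested members and -0.04 for all tested genes. The decline was spread unevenly over the 3 intervals. From E11 to E13, 22 members differed (19 lower, 3 higher; 40.1% of all tested genes differed and 17.5% were lower), with a median of -0.48. In that interval 10 members were lower and 1 higher by at least 2-fold, as were 3.5% and 6.26% of all tested genes, and 22.6% of all tested genes were higher at all. From E13 to E17, 38 members differed (32 lower, 6 higher; 73.8% of all tested genes differed and 37.0% were lower), with a median of -1.47, and 25 were lower by at least 2-fold (15.5% of all tested genes). From E17 to P1, 21 members differed (17 lower, 4 higher; 49.9% of all tested genes differed and 25.9% were lower), with a median of -0.29, and 5 were lower and 2 higher by at least 2-fold (3.43% and 6.29% of all tested genes). The interval with the largest fitted change was E13 to E17 for 31 of the 41 genes, as a fall for 28 and as a rise for 3 (Wnt2, Wnt3 and Sfrp5). This count was not made over all tested genes, of which more differed from E13 to E17 than in the other intervals. The intervals differ in length, E13 to E17 being the longest.

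**Figure D1:**
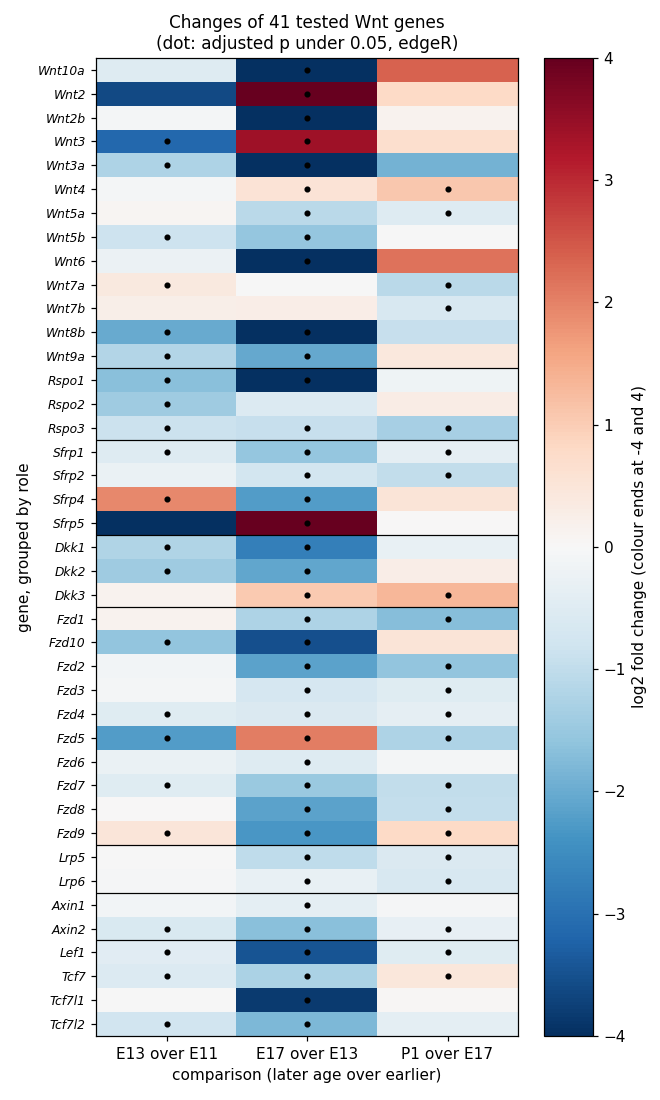
Fitted log2 fold changes of the 41 tested Wnt genes (rows, grouped by role) for each interval between sampled ages (columns, later age over earlier). Blue is lower and red higher at the later age, colours stop at -4 and 4, and a dot marks an adjusted p under 0.05; the middle column holds 38 dots, 32 of them on falls. Wnt2 and Sfrp5 had no counts at E13, so the colours of their first 2 columns depend on the small constant that edgeR adds.

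Among the ligands, Wnt8b and Wnt7b had similar means at E11 (148 and 146 CPM), with overlapping libraries. Per kb of exon Wnt8b was the higher at E11 (42.4 and 29.9 CPM per kb). Wnt7b led at the later ages. Wnt8b, a ligand of the medial cortical edge, had 140, 137 and 165 CPM at E11, 48.1, 23.9 and 37.2 CPM at E13, 0.114, 0.931 and 0.0469 CPM at E17, and 0, 0.515 and 0 CPM at P1. No library of a later age overlapped those of the age before up to E17, and the few reads left at E17 and P1 came mostly from library B of each age. The level at E13 was 4.05-fold below that at E11 (log2 fold change -2.02 ± 0.37 SE, adjusted p = 0.0021) and the level at E17 was 112-fold below that at E13 (-6.80 ± 0.64, adjusted p = 5.75e-06), with a log2 fold change of -8.90 without E17 B, which held 26 of the 31 Wnt8b counts at E17, and -6.09 without E17 C. DESeq2 gave the same size for the first fall with an adjusted p of 0.269, and leaving out libraries E17 A, E13 C and E11 C at once gave 0.0572. The fitted change between P1 and E11 was -9.74 with all libraries and -15.32 without P1 B, since P1 A and P1 C held no Wnt8b counts.

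Wnt3a, the hem signal required for hippocampal growth in mouse, followed the same course. It had 21.2, 19.6 and 21.9 CPM at E11, 11.8, 6.85 and 8.15 CPM at E13, 0.0379, 0.43 and 0 CPM at E17, and 0.0266, 0.0773 and 0 CPM at P1. All E13 libraries lay below the E11 libraries and the E17 libraries all below the E13 libraries. The changes were -1.22 ± 0.31 for E13 over E11 (adjusted p = 0.00898 in edgeR, 0.312 in DESeq2 and 0.0744 without those 3 libraries) and -6.00 ± 0.54 for E17 over E13 (adjusted p = 9.06e-07). The size of the last change rests on few reads: E17 B held 12 of the 13 Wnt3a counts at E17, and the change was -8.95 without E17 B and -5.20 without E17 C. Wnt9a, whose gene neighbours Wnt3a on chromosome 11, had 15.2, 14.7 and 17.4 CPM at E11, 9.29, 5.05 and 6.70 at E13, 1.17, 2.58 and 1.38 at E17, and 2.21, 2.09 and 2.46 at P1. It also fell from age to age up to E17 (-1.17 ± 0.23, adjusted p = 0.0016, and -2.05 ± 0.27, adjusted p = 1.42e-05), but stayed measurable at P1, where its mean was 2.25 CPM beside 0.0347 CPM for Wnt3a. Between P1 and E17 its libraries overlapped (0.41 ± 0.28, adjusted p = 0.25, and 0.80 with adjusted p = 0.0222 without E17 B).

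Wnt3a and Wnt9a lie on opposite strands with 16.2 kb between them and are transcribed away from each other. The 250 bases before each start site are given, 5′ to 3′, to show what the neighbouring pair shares beside the more steeply falling Wnt8b, whose start lies on chromosome 19. The sequences are RefSeq's (GRCm38.p6; chr11:59290752-59291001 on the minus strand, chr11:59306680-59306929 on the plus strand and chr19:44493222-44493471 on the plus strand), with every CG dinucleotide in capitals.
Wnt3a: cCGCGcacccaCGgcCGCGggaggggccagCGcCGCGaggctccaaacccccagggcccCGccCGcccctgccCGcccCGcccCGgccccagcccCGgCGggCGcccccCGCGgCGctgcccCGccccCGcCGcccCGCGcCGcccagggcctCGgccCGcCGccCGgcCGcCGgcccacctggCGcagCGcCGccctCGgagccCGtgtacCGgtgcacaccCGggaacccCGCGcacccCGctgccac
Wnt9a: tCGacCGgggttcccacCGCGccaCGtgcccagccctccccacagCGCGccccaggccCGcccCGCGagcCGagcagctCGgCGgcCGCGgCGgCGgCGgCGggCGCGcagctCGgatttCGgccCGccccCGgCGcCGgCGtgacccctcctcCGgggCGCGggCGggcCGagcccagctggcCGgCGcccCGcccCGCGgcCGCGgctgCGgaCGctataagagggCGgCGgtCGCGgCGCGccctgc
Wnt8b: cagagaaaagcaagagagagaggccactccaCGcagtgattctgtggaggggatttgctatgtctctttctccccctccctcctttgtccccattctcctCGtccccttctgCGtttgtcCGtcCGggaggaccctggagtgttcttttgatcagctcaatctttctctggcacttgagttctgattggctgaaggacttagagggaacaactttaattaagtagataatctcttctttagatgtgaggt
The stretches shown hold 41 CG dinucleotides before Wnt3a and 48 before Wnt9a, against 5 before Wnt8b. Over windows from 250 bases before to 50 after the start, the median was 26.5 CG dinucleotides for the 40 windows found for 32 of the 49 genes and 7 for all 32851 windows of the RefSeq table. Over such windows Wnt3a had 45, Wnt9a 58 and Wnt8b 6, while Wnt2b had 43 and Wnt4, which was highest at P1, had 51. A high count was thus not particular to the neighbouring pair or to ligands that fell. CpG density varied widely among the ligands shown, which fell together, and no test was made of it.

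Other ligands with a fall after E13 were Wnt2b, Wnt5a, Wnt5b, Wnt6 and Wnt10a. Wnt2b, another ligand of the hem, had 20.0, 19.2 and 9.59 CPM at E11, 18.2, 11.5 and 16.9 at E13, 0.568, 1.86 and 0.563 at E17, and 1.01, 0.928 and 1.24 at P1. Its E11 and E13 libraries overlapped (-0.07 ± 0.33, adjusted p = 0.899), and E17 lay 16.1-fold below E13 (-4.01, adjusted p = 5.95e-06, and -4.77 without E17 B). Wnt5b averaged 19.7 ± 1.20 CPM at E11, 11.1 ± 2.34 at E13, 3.78 ± 0.43 at E17 and 3.74 ± 0.63 at P1 (SD, n = 3 each), with changes of -0.83 ± 0.15 (adjusted p = 0.000814) and -1.56 ± 0.17 (adjusted p = 1.23e-06) in the first intervals and -0.01 ± 0.17 in the last. Wnt5a, best known for signalling outside the beta-catenin route, was not distinguished between E13 and E11 (means 31.4 and 30.0 CPM, adjusted p = 0.814) and 2.10-fold lower at E17 than at E13 (adjusted p = 0.000323). Its further change from E17 to P1 (-0.53 ± 0.20, adjusted p = 0.0445) did not pass the threshold when any of 7 single libraries was left out, with an adjusted p of up to 0.175 without P1 C. Nor did it pass with limma-voom (adjusted p = 0.0933), upper-quartile scaling (0.057) or no low-count filter (0.129).

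Wnt6 and Wnt10a, which lie 6.2 kb apart on the same strand of chromosome 1, were low at first and nearly gone later. Wnt10a had 1.48, 0.884 and 1.15 CPM at E11 and 0.899, 0.898 and 0.617 at E13, then 0, 0.0358 and 0 at E17 and 0.0266, 0.0773 and 0.0955 at P1. Summed over libraries, E17 held 1 count of Wnt10a and E13 86, a ratio of 0.0127 (95% interval 0.000318 to 0.0726), and E17 held 1 count of Wnt6 and E13 81, a ratio of 0.0135 (0.000337 to 0.0772). These intervals cover counting error only. For both genes the edgeR test of E17 with E13 passed the threshold (adjusted p = 1.67e-06 for Wnt10a and 2.52e-05 for Wnt6).

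The falls of Wnt8b, Wnt3a and Wnt2b to E17 ran beside markers of the hem, while Wnt5a still averaged 15.0 CPM at E17. The 5 hem and roof plate markers were transcription factors and BMPs. They summed to 64.5 to 104 CPM at E11, 25.5 to 34.5 at E13, 1.36 to 2.22 at E17 and 1.47 to 3.65 at P1, with Gdf7 at 0 in all E13 libraries. Bmp6 made up 1.31 of the mean of 1.9 CPM at E17. Between E11 and E13 the mean sum fell from 79.1 to 28.9 CPM. Wnt8b and Wnt3a were also lower at E13 than at E11, whereas Wnt2b averaged 15.5 and 16.2 CPM. Meningeal and choroid plexus sums, given above, were also lower at E17 than at E13. The part of these tissues in the Wnt results was not tested.

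**Figure D2:**
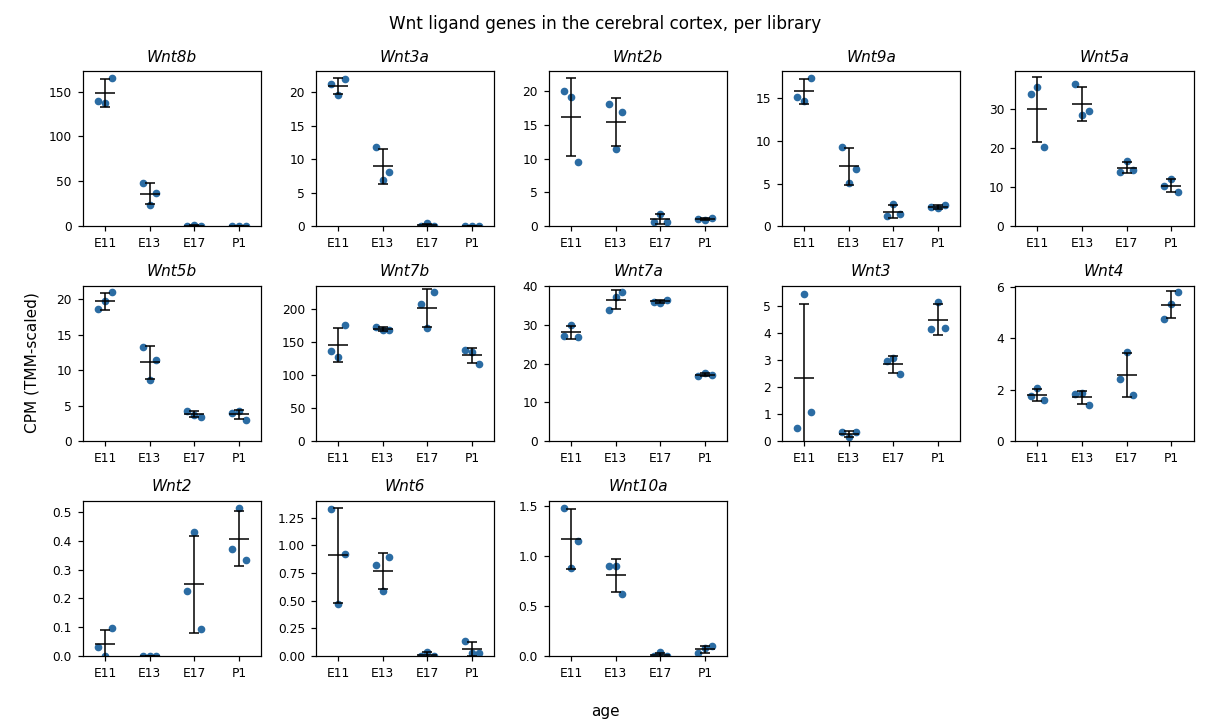
TMM-scaled CPM (vertical axis, own scale in each panel, starting at 0) of the 13 tested Wnt ligands by age. Each point is 1 library, and the bar and whiskers are the mean and SD of 3 libraries. Wnt8b and Wnt3a drop to near 0 by E17, Wnt7b stays between 117 and 226 CPM in all 12 libraries, and Wnt4 is highest in the 3 P1 libraries.

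Wnt7b and Wnt7a, the ligands known for their action on brain vessels and on neurons, were kept through the embryonic ages. Wnt7b had 137, 127 and 176 CPM at E11, 173, 168 and 168 at E13, 208, 171 and 226 at E17, and 138, 135 and 117 at P1. Libraries of E11, E13 and E17 overlapped from each age to the next, and all P1 libraries lay below all E17 libraries. P1 was 1.55-fold below E17 (-0.63 ± 0.12, adjusted p = 0.00117), while P1 and E11 were not distinguished (-0.17 ± 0.12, adjusted p = 0.212). The changes of 0.22 ± 0.12 to E13 and 0.25 ± 0.12 to E17 missed the threshold with all libraries (adjusted p = 0.187 and 0.087) and passed it without E11 C (adjusted p = 0.0167 and 0.028), and the later of them also without E17 B (adjusted p = 0.0175). Wnt7a had 27.1, 30.0 and 27.0 CPM at E11, 33.8, 37.3 and 38.6 at E13, 36.0, 35.7 and 36.6 at E17, and 16.9, 17.7 and 17.1 at P1. It rose between E11 and E13 (0.38 ± 0.07, adjusted p = 0.000545) and fell 2.10-fold between E17 and P1 (adjusted p = 7.98e-07), each time with no overlap of libraries.

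Because the libraries differ in scaling but each ligand's share of the ligand total does not depend on it, the mix was also followed as the share of each gene in the summed CPM per kb of exon over all 19 ligands. Wnt8b took 38.2 ± 1.36% of it at E11, 13.7 ± 3.36% at E13, 0.192 ± 0.268% at E17 and 0.122 ± 0.211% at P1 (SD, n = 3 each). Wnt7b took 26.8 ± 2.85% at E11, 46.4 ± 3.92% at E13, 70.2 ± 4.37% at E17 and 68.5 ± 1.66% at P1, and Wnt7a 8.02 ± 0.912%, 15.5 ± 2.27%, 19.5 ± 1.40% and 14 ± 0.962% at the same ages. Of the remainder at E11, Wnt3a took 6.83%, Wnt5b 6.71%, Wnt9a 4.27%, Wnt2b 3.55% and Wnt5a 3.51%. At P1 the next largest shares after the Wnt7 genes were those of Wnt3 (3.76 ± 0.368%), Wnt5b (3.62 ± 0.372%), Wnt5a (3.42 ± 0.339%) and Wnt4 (3.29 ± 0.546%), which lie within each other's spread. The summed CPM of all ligands was 432 ± 28 at E11, 321 ± 27.5 at E13, 266 ± 23.9 at E17 and 176 at P1.

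Wnt4, Wnt3 and Wnt2 had their highest means at P1, all at low levels. Wnt4 had 1.77, 2.06 and 1.59 CPM at E11, 1.83, 1.88 and 1.42 at E13, 2.42, 3.47 and 1.78 at E17, and 4.77, 5.34 and 5.83 at P1. All P1 libraries lay above all others, 2.10-fold above E17 (1.07 ± 0.21, adjusted p = 0.00099) and 2.93-fold above E11 (adjusted p = 1.4e-05). The change from E13 to E17 (0.56 ± 0.23, adjusted p = 0.0385) came from overlapping libraries and missed the threshold without E17 B (0.28, adjusted p = 0.242), E13 C (adjusted p = 0.129), E13 A (0.0561) or E17 A (0.0537). It was lost in 9 of the 23 other settings. Among them were limma-voom (adjusted p = 0.0821), upper-quartile (0.0706) and library size scaling (0.148), and the 2 ages alone (0.0784). Wnt3 had 0.473, 5.45 and 1.08 CPM at E11, 0.317, 0.14 and 0.339 at E13, 2.95, 3.08 and 2.46 at E17, and 4.15, 5.13 and 4.18 at P1. E11 B stood apart from the other E11 libraries. The fall to E13 was -3.13 ± 0.83 (adjusted p = 0.0124), -1.53 without E11 B, and missed the threshold without E13 B (adjusted p = 0.061). The rise from E13 to E17 was 10.5-fold (adjusted p = 0.0033), and the change of P1 over E11 was 0.93 ± 0.61 (adjusted p = 0.175), or 2.53 (adjusted p = 6.43e-06) without E11 B. Wnt2 had no counts at E13 and 0.227, 0.43 and 0.0938 CPM at E17, at least 8-fold higher against a floor of 3 counts over the E13 libraries.

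All 10 Frizzled receptor genes were lower at P1 than at E11, 9 of them by at least 2-fold, beside 41.8% and 22.7% of all tested genes. Their summed level was 106 to 130 CPM at P1, against 523 to 568 CPM at E11. Most of that difference lay between E17 (190 to 210 CPM) and E13 (498 to 537 CPM). Fzd2 had 119, 118 and 137 CPM at E11, 121, 108 and 114 at E13, 27.8, 19.5 and 30.8 at E17, and 10.7, 8.20 and 7.19 at P1. Its E11 and E13 libraries overlapped, and it then fell 4.38-fold to E17 (adjusted p = 1.57e-07) and 3.01-fold to P1 (adjusted p = 2.26e-05). Fzd8 fell 4.44-fold from E13 to E17 (adjusted p = 1.74e-08) and 1.92-fold to P1, and Fzd7 2.77-fold and 1.96-fold in the same intervals. Fzd1 had 109, 97.4 and 107 CPM at E11, 119, 116 and 113 at E13, 46.3, 50.1 and 51.4 at E17, and 17.6, 17.9 and 9.93 at P1, falling 2.35-fold between E13 and E17 (adjusted p = 1.87e-05) and 3.27-fold between E17 and P1 (adjusted p = 1.18e-05). Fzd3, known for guiding axons, and Fzd6 fell less between E11 and P1, with log2 fold changes of -1.26 ± 0.08 and -0.87 ± 0.10, against -3.84 ± 0.18 for Fzd2.

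Fzd10, Fzd9 and Fzd5 took other courses. Fzd10, a receptor found in the hem and dorsal midline of mouse embryos, had 16.9, 25.7 and 17.9 CPM at E11, 7.96, 4.55 and 7.81 at E13, 0.379, 1.00 and 0.422 at E17, and 0.799, 0.954 and 0.788 at P1. Its falls of 2.98-fold to E13 (adjusted p = 0.000395) and 11.5-fold to E17 (adjusted p = 1.01e-06) had no overlapping libraries, and E17 and P1 overlapped. Fzd9 had 36.9, 39.1 and 26.0 CPM at E11, 53.7, 44.8 and 43.2 at E13, 9.92, 10.5 and 8.09 at E17, and 16.2, 15.8 and 17.8 at P1. It fell 5-fold between E13 and E17 (adjusted p = 2.06e-08) and rose 1.76-fold between E17 and P1 (adjusted p = 0.000833), so that every P1 library lay above every E17 library. The rise of Fzd9 between E11 and E13 (0.47 ± 0.14, adjusted p = 0.0186) shrank to 0.31 without E11 C and missed the threshold without E13 A (adjusted p = 0.0715). Fzd5 had 3.07, 1.56 and 4.05 CPM at E11, 0.556, 0.309 and 0.988 at E13, 3.14, 2.04 and 2.51 at E17, and 1.25, 1.03 and 0.955 at P1. It fell to E13 (-2.24 ± 0.39, adjusted p = 0.000705), rose again to E17 (2.06 ± 0.40, adjusted p = 0.000406) and fell to P1 (-1.25 ± 0.37, adjusted p = 0.0129). That last fall missed the threshold without E17 A (adjusted p = 0.052) or P1 C (0.0544).

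The smaller changes among the remaining receptors included Fzd4, the receptor for norrin in vessels, which fell in every interval (-0.48, -0.58 and -0.36). The last of these missed the threshold without E17 A (adjusted p = 0.0517) or P1 A (0.0529). Between E11 and E13, Fzd6 missed it in the full set (adjusted p = 0.0568) and passed it without E13 A (0.00987) or P1 C (0.0413), with RLE (0.0487), upper-quartile (0.0305) or library size scaling (0.0402), with a filter of 1 CPM in 3 libraries (0.0421), and with DESeq2 (0.0429) and limma-voom (0.04). As shares of Frizzled CPM per kb, Fzd2 took 28.9 ± 1.86% at E11, 27.4 ± 0.214% at E13, 19.0 ± 3.67% at E17 and 10.4 ± 1.38% at P1, and Fzd9 12.7 ± 2.88%, 18.0 ± 1.43%, 11.2 ± 1.90% and 32.0 ± 4.70%. Fzd3 took 15.7 ± 0.855% at P1, against 7.31 ± 0.271% at E11. Fzd1 took 21.2 ± 0.78% at E11, 24.3 ± 1.02% at E13, 31.5 ± 1.58% at E17 and 15.6 ± 3.71% at P1. Fzd2 and Fzd1 therefore led at the embryonic ages and Fzd9 at P1.

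The co-receptors changed late and moderately. Lrp6, the main Wnt co-receptor of the embryo, had 157, 148 and 148 CPM at E11, 142, 148 and 145 at E13, 122, 112 and 120 at E17, and 77.5, 76.6 and 71.0 at P1. Its E11 and E13 libraries overlapped, and it then fell 1.23-fold to E17 (adjusted p = 0.000151) and 1.57-fold to P1 (adjusted p = 1.93e-06). Lrp5 lay at 67.6 to 72.4 CPM at E13 and 66.6 to 73.5 CPM at E11, then fell 2.01-fold to E17 (adjusted p = 1.6e-07) and 1.51-fold to P1 (adjusted p = 0.000127). Lrp6 took 69.9 ± 2.42% of the pair's CPM per kb at P1 and 60.2 ± 1.24% at E11.

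**Figure D3:**
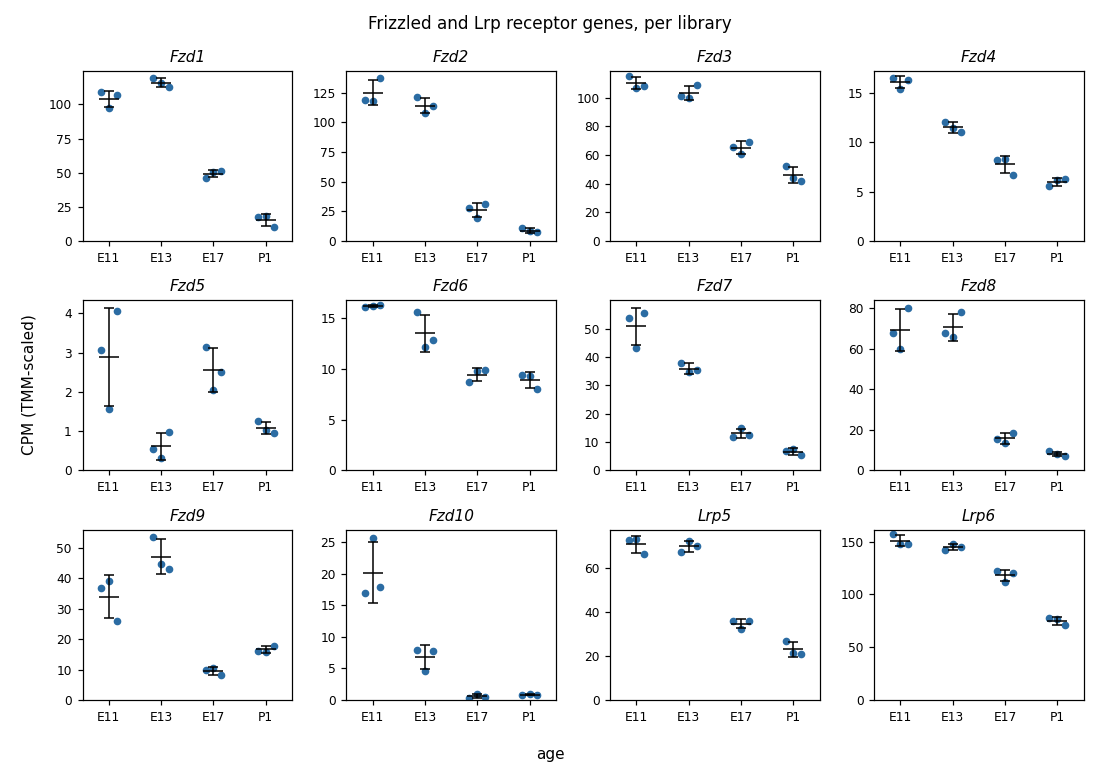
TMM-scaled CPM (vertical axis, own scale in each panel, starting at 0) of the 10 Frizzled genes, Lrp5 and Lrp6 by age. Points are single libraries, and bars and whiskers are the mean and SD of 3 libraries. Fzd2 and Fzd8 overlap between E11 and E13 and are lower at E17, Fzd5 is lowest at E13, and Fzd9 is higher at P1 than at E17.

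All 3 tested R-spondins were lower at E13 than at E11, as were 17.5% of all tested genes. Rspo1 had 64.3, 65.3 and 77.6 CPM at E11, 28.5, 15.3 and 21.4 at E13, 0.454, 0.895 and 0.305 at E17, and 0.399, 0.593 and 0.406 at P1. It was 3.18-fold lower at E13 than at E11 (adjusted p = 9.82e-05) and 41.4-fold lower at E17 than at E13 (adjusted p = 1.97e-08), with no overlap, and E17 and P1 overlapped. Rspo2 had 58.3, 62.0 and 80.6 CPM at E11, 34.3, 18.0 and 22.8 at E13, 15.0, 23.5 and 13.2 at E17, and 20.3, 23.6 and 19.4 at P1. It fell 2.67-fold between E11 and E13 (adjusted p = 0.00148) and then overlapped from age to age, with a change of -0.55 ± 0.26 to E17 (adjusted p = 0.0826) that passed the threshold without E13 B (adjusted p = 0.0291) or E17 B (0.0145). Rspo3 fell in every interval, with 62.2, 75.8 and 76.0 CPM at E11, 48.5, 33.3 and 35.3 at E13, 18.1, 19.3 and 23.8 at E17, and 9.14, 7.78 and 7.57 at P1. No libraries of successive ages overlapped, and its last fall was 2.51-fold (adjusted p = 3.79e-05). In shares of CPM per kb each gene led the family in turn: Rspo1 led at E11 with 49.6 ± 1.71%, Rspo3 at E17 with 64.6 ± 9.23%, and Rspo2 at P1 with 58.8 ± 3.20%. At E13 Rspo3 took 44.4 ± 3.54% and Rspo1 38.7 ± 2.79%.

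The secreted inhibitors split between genes that fell with the ligands and genes that rose. Sfrp1, a Wnt-binding protein made by cortical progenitors, was the most abundant Sfrp per kb at every age (79.1 to 89.1% of the family on average). It had 584, 659 and 606 CPM at E11, 445, 347 and 484 at E13, 143, 133 and 162 at E17, and 115, 120 and 104 at P1. No libraries of successive ages overlapped. Its falls were -0.53 ± 0.11 (adjusted p = 0.0023), -1.54 ± 0.11 (adjusted p = 5.83e-08) and -0.37 ± 0.11 (adjusted p = 0.0159), the last of which missed the threshold without E17 C (adjusted p = 0.0749) or P1 C (0.0855). Sfrp2 averaged 36.8 CPM at E11, 30.6 at E13, 18.3 at E17 and 9.31 at P1, 3.95-fold lower at P1 than at E11 (adjusted p = 9.71e-08). Its change from E11 to E13 (adjusted p = 0.191) passed the threshold without E17 B (adjusted p = 0.0218), a library of neither age. It also passed when only the E11 and E13 libraries were fitted (-0.27, adjusted p = 0.0286).

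Sfrp4 was highest at E13, with 0.532, 0.59 and 0.51 CPM at E11, 1.64, 2.61 and 1.98 CPM at E13, 0.341, 0.501 and 0.469 CPM at E17, and 0.559, 0.825 and 0.525 CPM at P1. The E13 libraries lay above all others (1.92 ± 0.25 over E11, adjusted p = 5.52e-05, and -2.22 ± 0.26 for E17 over E13, adjusted p = 3.33e-06). Sfrp5 had 0.355, 0 and 0 CPM at E11, no counts at E13, 1.02, 0.537 and 0.563 CPM at E17, and 0.666, 0.593 and 0.859 CPM at P1. Its level at E17 was at least 24-fold higher than at E13, against the floor of 3 counts. Between P1 and E11 the fitted change of Sfrp5 was 2.52 (adjusted p = 0.0121) and 7.64 without E11 A, the E11 library that held its counts, and the change from E11 to E13 passed the threshold without E11 B (adjusted p = 0.0404) or E11 C (0.0422).

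Dkk3, a secreted relative of the Dickkopf inhibitors whose action on Wnt signalling differs between settings, went against the rest of its family. It had 35.3, 35.6 and 25.5 CPM at E11, 40.8, 31.7 and 33.5 at E13, 72.2, 101 and 47.3 at E17, and 172, 192 and 186 at P1. Its E11 and E13 libraries overlapped, the E17 libraries were widely spread but all above E13, and all P1 libraries exceeded all others. It rose 2.07-fold between E13 and E17 (1.05 ± 0.24, adjusted p = 0.00244) and 2.5-fold between E17 and P1 (1.32 ± 0.24, adjusted p = 0.00103), and P1 was 5.70-fold above E11 (adjusted p = 3.11e-06). Dkk2 had 13.2, 17.3 and 25.3 CPM at E11, 8.10, 4.72 and 7.99 at E13, 2.5, 1.11 and 1.41 at E17, and 2.08, 1.93 and 1.89 at P1. It fell 2.68-fold to E13 (adjusted p = 0.00175) and 4.21-fold to E17 (adjusted p = 9.87e-05). Dkk1, the best-known Lrp blocker and itself a target of beta-catenin, averaged 0.998 CPM at E11, 0.432 at E13, 0.0689 at E17 and 0.0493 at P1, 18.4-fold lower at P1 than at E11 (-4.20, adjusted p = 1.7e-06, and -5.04 without P1 C). Its fall between E11 and E13 (-1.19 ± 0.34, adjusted p = 0.0133) missed the threshold without E11 C (-0.87, adjusted p = 0.069) or E13 B (adjusted p = 0.0565). In shares of CPM per kb Dkk3 took 99.0 ± 0.0914% of the family at P1 and 63.8 ± 11.7% at E11.

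The promoter of Dkk1 is given because it was 1 of the 3 member windows that held a TCF/LEF motif, the site bound by the effectors described next. The 250 bases before its start (RefSeq, GRCm38.p6, chr19:30549497-30549746, minus strand, 5′ to 3′) read as follows, with the motif in capitals.
Dkk1: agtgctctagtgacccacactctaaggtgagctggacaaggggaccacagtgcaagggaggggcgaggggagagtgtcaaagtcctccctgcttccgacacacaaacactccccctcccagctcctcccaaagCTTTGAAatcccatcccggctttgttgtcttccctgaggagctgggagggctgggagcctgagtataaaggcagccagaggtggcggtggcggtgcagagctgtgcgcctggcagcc
The motif begins 117 bases before the start. The letters searched were CTTTGAA and CTTTGAT, on both strands and in windows from 250 bases before to 50 after each start. They were found in 3 of 40 member windows (7.5%) and in 2842 of all 32851 windows (8.7%). The other 2 were a window of Wnt11 (CTTTGAT on the opposite strand) and 1 of 3 windows of Wnt5b (CTTTGAT). The letters were not in the single window of Axin2, and none of this says whether a factor binds.

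Axin2, the feedback inhibitor that is widely used as a readout of beta-catenin signalling, had 124, 133 and 123 CPM at E11, 92.5, 79.9 and 77.1 at E13, 24.9, 28.5 and 24.5 at E17, and 22.7, 21.4 and 18.2 at P1. No libraries of successive ages overlapped. It fell 1.52-fold to E13 (adjusted p = 0.000116), 3.21-fold to E17 (adjusted p = 1.32e-09) and 1.25-fold to P1 (-0.32 ± 0.09, adjusted p = 0.0119), and the last fall missed the threshold without P1 C (-0.21, adjusted p = 0.08) or without E17 B (0.0529). Axin1, its constitutive counterpart, had 96.7, 95.2 and 90.2 CPM at E11, 89.8, 86.9 and 86.6 at E13, 66.7, 62.8 and 70.9 at E17, and 65.0, 66.5 and 62.9 at P1. Only its fall between E13 and E17 passed the threshold among the 3 intervals (-0.39 ± 0.05, adjusted p = 1.39e-05). Per kb the 2 genes were apart at P1, with Axin2 at 18.2 ± 1.39% of their sum, and close at E11, with Axin2 at 48.3 ± 1.07%.

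All 4 TCF/LEF genes fell by at least 2-fold between E13 and E17, as did 15.5% of all tested genes. Lef1, which mostly activates targets and is itself induced by Wnt signalling, had 69.6, 65.2 and 61.0 CPM at E11, 50.3, 43.4 and 48.9 at E13, 4.05, 5.16 and 3.99 at E17, and 3.78, 2.5 and 3.18 at P1. It lay 10.9-fold lower at E17 than at E13 (-3.44 ± 0.13, adjusted p = 5.98e-11), after a 1.37-fold fall to E13 (adjusted p = 0.00531). The fall of Lef1 between E17 and P1 (-0.47 ± 0.15, adjusted p = 0.0154) missed the threshold without P1 B (-0.31, adjusted p = 0.0784) or without E17 B (0.0699). Tcf7l1, known mainly as a repressor that keeps progenitors undifferentiated, had 68.9, 62.2 and 71.9 CPM at E11, 63.2, 63.8 and 72.9 at E13, 4.20, 5.12 and 4.74 at E17, and 5.57, 4.30 and 4.87 at P1. Its E11 and E13 libraries overlapped (-0.02 ± 0.09), E17 was 14.2-fold below E13 (-3.83 ± 0.11, adjusted p = 7.46e-12), and E17 and P1 overlapped again (0.06 ± 0.11), so that nearly its whole change fell in 1 interval.

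Tcf7l2, which is abundant in the thalamus, had 15.1, 26.7 and 17.7 CPM at E11, 10.7, 12.1 and 12.4 at E13, 3.41, 3.22 and 3.38 at E17, and 2.96, 2.55 and 2.10 at P1. Its fall to E13 was -0.76 ± 0.18 (adjusted p = 0.00429), and -0.48 without E11 B, the library with the highest level. Thalamic and diencephalic markers summed to 54.1 CPM in E11 A, 71.8 in E11 B and 58.8 in E11 C, 52.6 to 62.3 at E13, 3.71 to 7.45 at E17 and 1.38 to 3.56 at P1, with E11 B again highest. Lhx9 alone made up 53.5 of the mean of 56.4 CPM at E13 and 46.8 of 61.6 CPM at E11, while Barhl2 averaged 1.55 CPM at E13 and 7.23 CPM at E11. The part of that tissue in the Tcf7l2 values was not tested. Tcf7 had 16.4, 18.4 and 16.0 CPM at E11, 12.2, 11.5 and 11.2 at E13, 5.11, 4.83 and 4.62 at E17, and 6.39, 6.57 and 6.76 at P1, and was the factor of this family that rose between E17 and P1 (0.44 ± 0.09, adjusted p = 0.00154), with no overlap. In shares of CPM per kb Tcf7l1 led at E11 (51.7 ± 3.76%) and E13 (60.2 ± 2.05%), and Tcf7 at E17 (47.2 ± 2.83%) and P1 (57 ± 3.8%). The summed level of the family was 170 ± 3.03 CPM at E11, 138 ± 7.37 at E13, 17.3 ± 0.915 at E17 and 17.2 at P1.

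**Figure D4:**
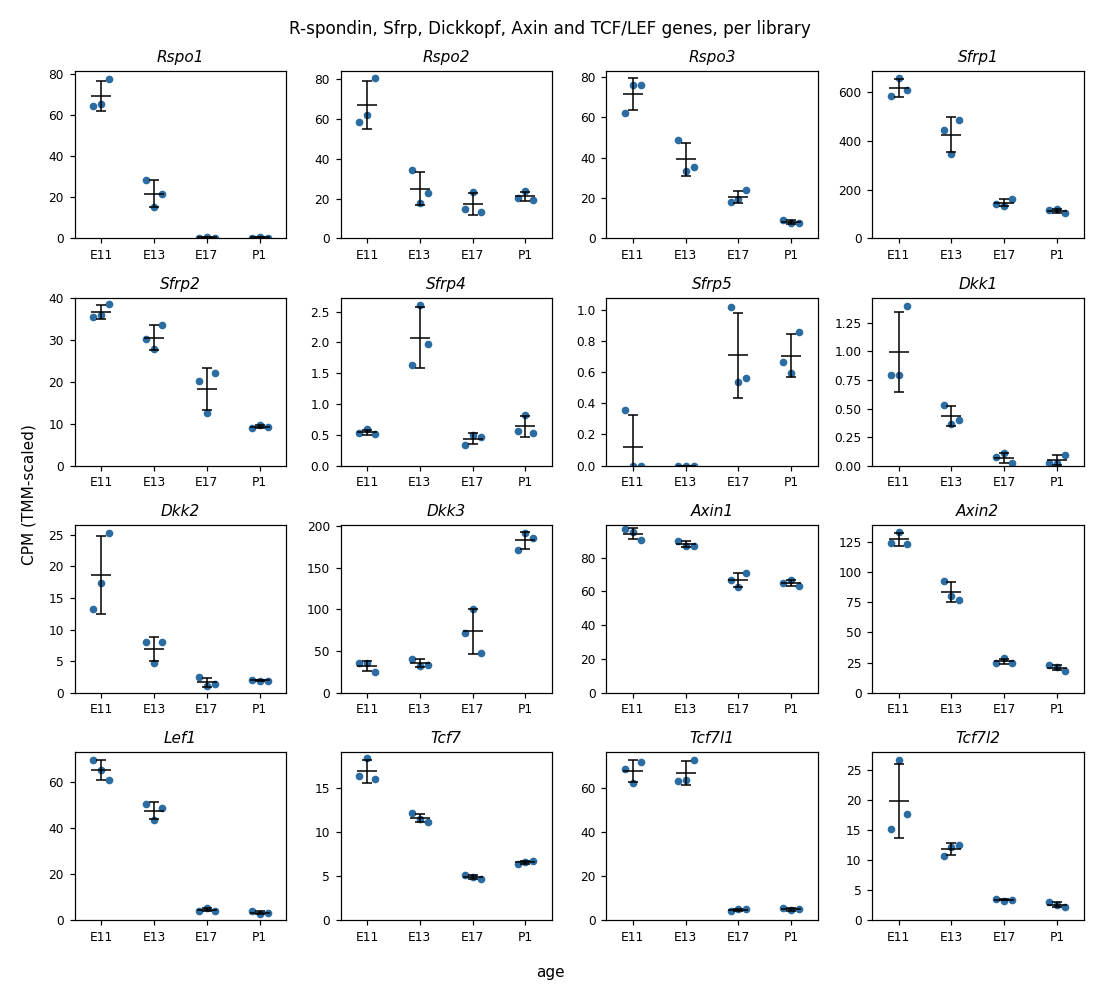
TMM-scaled CPM (vertical axis, own scale in each panel, starting at 0) of the tested R-spondin, Sfrp, Dickkopf, Axin and TCF/LEF genes by age. Points are single libraries, and bars and whiskers are the mean and SD of 3 libraries. Dkk3 is highest at P1 (172 to 192 CPM), Sfrp4 at E13, and Tcf7l1 drops between E13 and E17 with little change before or after.

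Set side by side, the classes differed in how far their summed level at P1 lay from that at E11. The TCF/LEF sum was 17.2 CPM at P1, against 170 CPM at E11, the R-spondin sum 29.7 CPM against 207 CPM, the Sfrp sum 124 CPM against 654 CPM, the Frizzled sum 118 CPM against 548 CPM, the ligand sum 176 CPM against 432 CPM, the Axin sum 85.6 CPM against 221 CPM and the Lrp sum 98.1 CPM against 222 CPM. The Dickkopf sum was higher at P1, 185 CPM against 51.8 CPM, through Dkk3. Ranges of P1 and E11 libraries did not overlap for any of the 8 classes. Cell cycle and radial glia marker sums were also lower at P1, by the values given above, and their part in these sums was not tested. Of the 9 radial glia markers 7 were lower and 2 higher at P1 than at E11, the higher ones being Slc1a3 (304 CPM at P1, 80.1 CPM at E11) and Fabp7 (374 and 203 CPM).

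**Figure D5:**
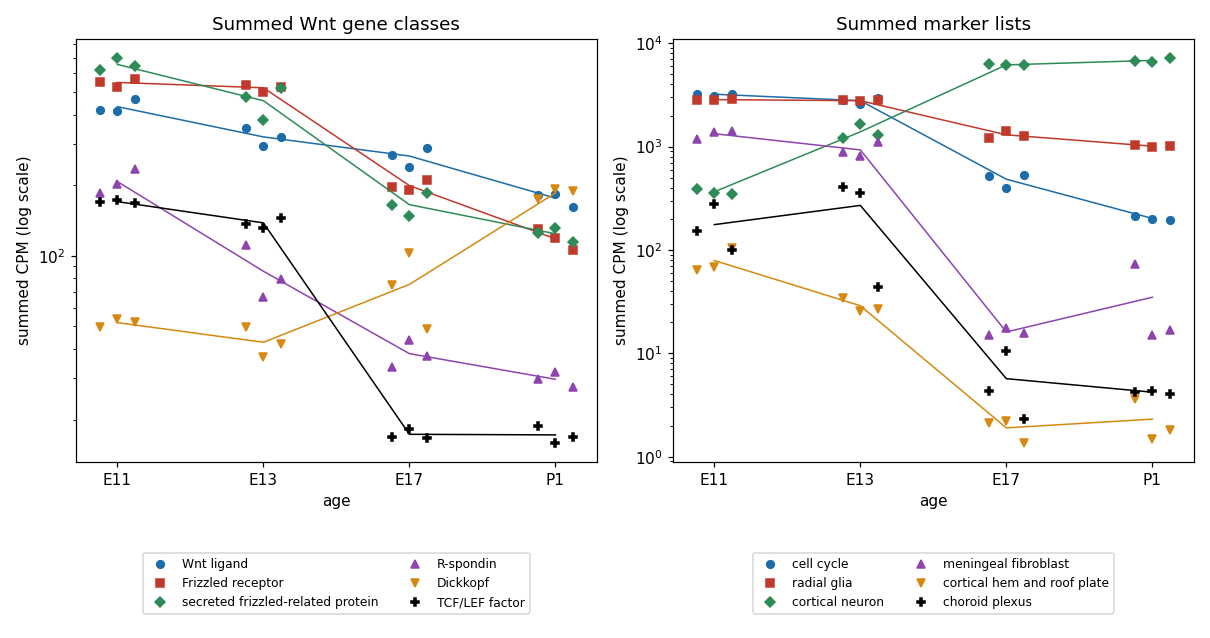
Summed TMM-scaled CPM (log axis) of 6 Wnt gene classes on the left and 6 marker lists on the right, by age. Points are single libraries and lines join the means of each age. The TCF/LEF sum is 17.3 CPM at E17, against 138 CPM at E13, while the Dickkopf sum is higher at P1 than at any other age, and the meningeal, hem and choroid plexus sums are likewise lower at E17 than at E13.

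The rest of the pathway was followed with 76 further genes from textbook lists, all of them tested. Between P1 and E11, 66 differed, 32 higher and 34 lower, with a median of -0.05. These are 86.8%, 42.1% and 44.7% of the list, near the 82.3%, 40.5% and 41.8% of all tested genes. In the successive intervals 37 (24 higher, 13 lower), 64 (29 higher, 35 lower) and 39 (20 higher, 19 lower) differed, beside 40.1%, 73.8% and 49.9% of all tested genes. The counts of smaller lists that follow stand beside the same 40.5% higher and 41.8% lower. Of 19 genes of the destruction complex and its transducers, 12 were higher and 5 lower at P1 than at E11. Apc2 and Apc, scaffolds that bind beta-catenin and microtubules, rose by 2.79 ± 0.12 (1086 CPM at P1, 157 CPM at E11) and 2.28 ± 0.08 (927 and 191 CPM), and Nkd1 and Dvl2 changed by -1.73 ± 0.10 and -1.13 ± 0.07. Beta-catenin itself, Ctnnb1, averaged 1601 CPM at E11, 1646 at E13, 1095 at E17 and 886 at P1. Its changes were 0.04 ± 0.06 to E13 (adjusted p = 0.606), -0.59 ± 0.06 to E17 (adjusted p = 4.62e-07) and -0.31 ± 0.06 to P1 (adjusted p = 0.000597), and -0.85 ± 0.06 for P1 over E11 (adjusted p = 5.07e-09).

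Of 16 genes for Wnt secretion and extracellular control, 5 were higher and 7 lower at P1 than at E11. Porcn, the enzyme that attaches the lipid to Wnts, rose by 2.16 ± 0.15 (47.7 CPM at P1, 10.6 CPM at E11), whereas Wls, the carrier that takes them to the surface, had already fallen at E13 (52.8 CPM, against 120 CPM at E11; -1.18 ± 0.12, adjusted p = 1.32e-05). Wif1 and Trabd2b, both inhibitors that act on Wnt ligands, had changes of -5.64 ± 0.31 and -4.31 ± 0.44, and Dkkl1 rose by 2.60 ± 0.37. Draxin, a secreted axon guidance protein that can also antagonise Wnt signalling, rose 1.90 ± 0.16 from E11 to E13. Of 13 co-receptor and receptor turnover genes, 3 were higher and 10 lower. Ror2 and Ror1, receptors for Wnt5a, changed by -4.28 ± 0.13 and -3.37 ± 0.23, and Lgr6, an R-spondin receptor, rose by 3.87 ± 0.25. Lgr4, its relative, rose by 0.45 ± 0.13 (adjusted p = 0.00571, and 0.129 with scaling by library size alone).

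Of 12 planar cell polarity genes, 5 were higher and 7 lower at P1 than at E11, and members of 1 family went opposite ways: Celsr3, needed for axon tracts, rose by 2.83 ± 0.16 (394 CPM at P1, 55.4 CPM at E11), while Celsr1 fell by 2.80 ± 0.20 (37.6 and 261 CPM). Prickle2 rose by 4.02 ± 0.09 (132 CPM at P1, 8.15 CPM at E11) and Fuz fell by 1.44 ± 0.09. Of 13 transcription partners of beta-catenin, 6 were higher, led by the co-repressor Tle2 (2.89 ± 0.22) and Bcl9l (1.13 ± 0.10), and 3 lower, led by Ctbp2 (-1.48 ± 0.06) and Tle1 (-0.72 ± 0.08). Of 12 known beta-catenin targets, a list that shares Axin2, Lef1 and Tcf7 with the members, 3 were higher and 8 lower. Ccnd1, cyclin D1, fell by 3.43 ± 0.19 (35.2 CPM at P1, 379 CPM at E11) and Sp5 changed by -2.98 ± 0.39, while Myc rose by 2.31 ± 0.09 (53.8 and 10.8 CPM) and the Wnt-inactivating enzyme Notum by 1.68 ± 0.26 (2.39 and 0.745 CPM).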

How the data were processed

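The authors deposited raw read counts per Ensembl gene for each of 12 libraries, with no normalization. Per the labels, poly(A)+ RNA from 1 cortex per library was made into stranded libraries and sequenced as single reads on 1 flow cell. The submitters' processing notes list STAR 2.5.2b, HTSeq 0.5.3, SAMtools, DESeq2 1.8.1 and bcl2fastq 2.18, without roles. No genome build, annotation or strand setting is given in the sources used here.

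Symbols were found for 50376 of 50600 identifiers. Exon lengths for CPM per kb came from GENCODE M21, which may not be the authors' annotation. Counts were fitted in R 4.3.3 with edgeR 4.0.16 (filterByExpr with a minimum count of 10, which left 17847 genes; TMM factors 0.92 to 1.09; robust quasi-likelihood, 4 age means, all 12 libraries). Adjusted p-values are two-sided, Benjamini-Hochberg, over every tested gene, with a threshold of 0.05. Levels are TMM-scaled CPM with SD over libraries. Fold changes are later over earlier age with SE, and fitted changes of genes near 0 depend on edgeR's prior count of 0.125. Ratio intervals are exact binomial. Alternatives were other scalings and filters, the 2 ages alone, a replicate block, DESeq2 1.42.0, limma-voom 3.58.1, erythroid genes removed, and libraries left out. The letters A, B and C did not pair libraries across ages. Libraries of 1 age differed by more than sampling noise. All members are named, and of each pathway list the 2 largest rises and falls past the threshold in a comparison could be named, if at least 1 CPM at an age. The members, lists and tests were chosen with earlier results of these data known, so counts over them are descriptions.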

Additional observations from a re-analysis of the deposited data

How the results depend on the processing

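No called change of a member turned its direction under any of the 23 other settings. The same held for the pathway genes among the 2 largest rises or falls of their list in a comparison. The remaining pathway genes were not checked for this. The number of members called was 19 to 24 for E13 with E11, 33 to 40 for E17 with E13, 17 to 23 for P1 with E17 and 33 to 40 for P1 with E11, all within 1.5 times the counts reported. Leaving out 1 library at a time gave 20 to 23, 37 to 39, 17 to 23 and 38 to 39. Some calls given above also changed in other settings. With limma-voom, Lef1 for P1 with E17 (adjusted p = 0.051) and Wnt3 for E13 with E11 (0.0626) missed the threshold. With the 2 ages alone, Fzd9 (0.0538) and Wnt3 (0.0581) missed it for E13 with E11. Rspo2 for E17 with E13 passed it with library size scaling (0.0298), as did Wnt7b for P1 with E11 (0.0105). Scaling by library size alone shifted the median of all genes by -0.18 for E17 over E13 and -0.23 for P1 over E11, and the upper quartile shifted the last by -0.10. With library size alone 39.8% of all genes called between E17 and E13 were higher, against 49.8% with TMM.

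The class sums moved with scaling. With the upper quartile they were, at E11, 231 CPM for Axin, 54.3 for Dickkopf, 575 for Frizzled, 233 for Lrp and 178 for TCF/LEF, and 89.0 for Axin at E17. With library size alone they were 240, 182, 86.7 and 79.3 CPM for Axin and 241, 228, 143 and 91.0 for Lrp at E11, E13, E17 and P1, 595, 553 and 186 for Frizzled and 184, 146 and 16.1 for TCF/LEF at E11, E13 and E17, 56.3 and 172 for Dickkopf and 710 and 115 for Sfrp at E11 and P1, and 469 for ligands at E11. The order of ages was the same within these classes except for TCF/LEF, which was higher at P1 than at E17 with RLE (17.5 and 17.3 CPM) and with the upper quartile (16.8 and 16.6 CPM).

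Letters A, B and C gave correlations of -0.343 to 0.33 between ages and did not pair the libraries. With them as a replicate block 22, 38, 21 and 38 members were called in the 4 comparisons in the order above, equal to the counts without it.

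Limits: 3 animals per age from whole cortex, where the amount of hem, meninges and choroid plexus included cannot be told apart from age. The strand setting of the counting is not given, and 10 members share exon sequence with a gene on the other strand, up to 17.8% of it for Fzd5, 16.1% for Sfrp2 and 13.7% for Lef1. Lengths behind per-kb shares come from an annotation that may differ from the authors'. Genes under 1 CPM rest on few reads, and for them intervals cover counting error only.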
